A study of Homo sapiens with 20 samples.

Results

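The genes described here were 10 chaperone and degradation genes of the endoplasmic reticulum (ER): HSPA5, HSP90B1, DNAJB9, DNAJC3, SDF2L1, CRELD2, HERPUD1, SEL1L, SYVN1 and XBP1. They were picked by symbol, with earlier results of these data known. Each matched 1 of the 39918 gene rows, and all 10 passed the filter on low counts, which left 18959 genes to test. Total RNA, depleted of ribosomal RNA, had been sequenced from HCT-116, an established human colorectal cancer cell line, in 5 groups of 4 samples. One group received 20 µM MG132 together with 50 µg/ml α-amanitin, another 20 µM MG132 and a further one 100 nM bortezomib, each for 3 h. These 3 groups had first been held in 2 mM thymidine for 16 h and released for 7 h. The G2 group had the same thymidine block and release and was collected at 0 h of drug. Asynchronous cells received neither thymidine nor a drug. MG132, a peptide aldehyde, and bortezomib, a boronate, both inhibit the proteasome, and α-amanitin inhibits RNA polymerase II. No group held for 3 h without drug was analysed here. A difference between a drug group and G2 therefore also holds 3 h of cell cycle time, and the drug and that time cannot be told apart. The drug groups were matched with each other in time.

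Proteins that enter the ER are folded by chaperones of the lumen, and those that fail to fold are carried back to the cytosol and degraded by the proteasome, a route called ER-associated degradation (ERAD). When unfolded proteins accumulate, the sensors IRE1, ATF6 and PERK start the unfolded protein response. Cleaved ATF6 and the transcription factor made from spliced XBP1 mRNA act on chaperone and ERAD genes, mainly through ER stress response elements (ERSE) in their promoters. PERK phosphorylates eIF2α and thereby favours translation of ATF4. Other kinases of eIF2α lead to ATF4 as well. Counts per gene do not separate spliced from unspliced XBP1 mRNA.

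Library totals ranged from 26797395 to 39710457 counts. Whether the replicates were separate cultures is not said in the labels. The p-values then describe the spread among these libraries alone, and it may be technical. In 4 libraries the genes' deviation from their mean changed with transcript GC content by more than 0.3 log2 units per 10 percentage points. This slope was 0.74 in MG132 replicate 4, -0.41 in MG132 replicate 2, 0.36 in G2 replicate 2 and 0.50 in asynchronous replicate 3, and these 4 are called GC-skewed here. Members of low GC content followed these libraries. SEL1L (39.4% GC), DNAJC3 (39.9%), DNAJB9 (40.4%) and HSP90B1 (41.2%) each had their lowest value of the group in MG132 replicate 4, G2 replicate 2 and asynchronous replicate 3, whereas XBP1 (41.5%) did not. Fold changes of single members are given with and without these 4 libraries. The summed level of 6 colon epithelial markers lay between 2599 and 5043 CPM (counts over TMM-adjusted library size). That of 6 fibroblast markers lay between 3.23 and 12.8 CPM, and that of 6 leukocyte markers between 0.0653 and 2.20 CPM. KRT8 and KRT18 made up most of the epithelial sum, at means of 2024 and 1234 CPM in G2 cells. VIL1 was at 0.105 CPM and CDX1 at 0 CPM there, so these markers of the list were near absent. The fibroblast sum was mostly COL1A1, at 8.55 CPM in G2 cells.

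**Figure D1:**
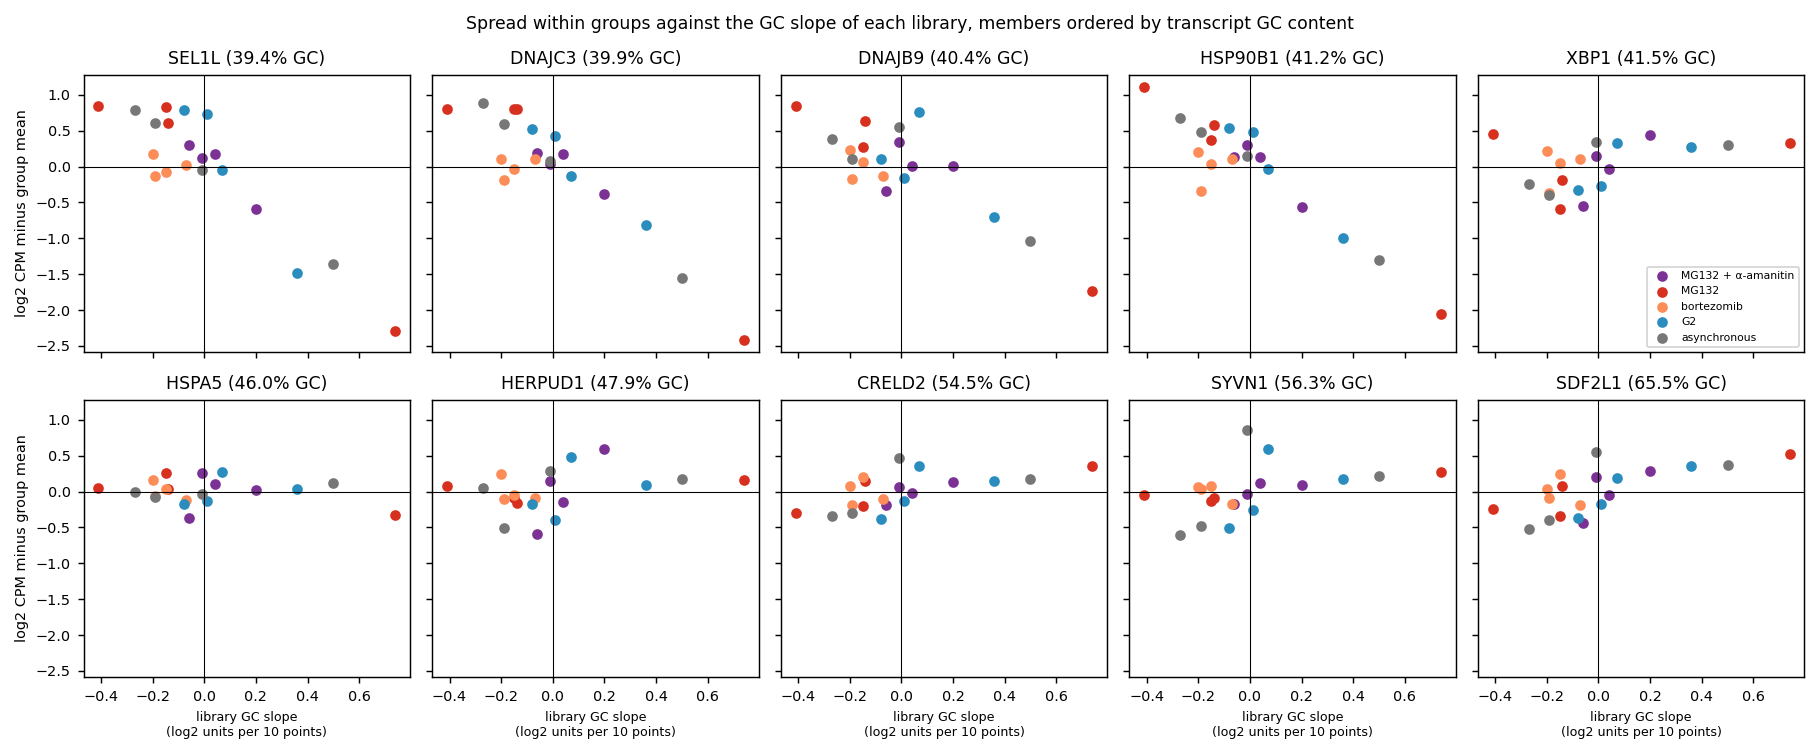
Deviation of each library's log2 CPM from its group mean (vertical axis, log2 units) against that library's slope of expression on GC content (horizontal axis, log2 units per 10 percentage points), in 1 panel per gene ordered by transcript GC content. Points are the 20 libraries, coloured by group. SEL1L, DNAJC3, DNAJB9 and HSP90B1 lie lowest at the right, in MG132 replicate 4 (slope 0.74), while HERPUD1 and XBP1 lie above their group mean in that library.

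The promoters of 4 members are shown because they hold letters of elements that the unfolded protein response is known to use, in genes that did and did not change. Each is the RefSeq window (GRCh38.p14) from 250 bases before to 50 bases after a start site, on the gene's own strand. Capitals mark the fixed letters of a match. The windows are chr16:56931892-56932191 (plus strand) for HERPUD1, chr9:125241294-125241593 (minus strand) for HSPA5, chr22:28800520-28800819 (minus strand) for 1 of the 2 XBP1 windows, and chr22:49918384-49918683 (plus strand) for CRELD2.
HERPUD1: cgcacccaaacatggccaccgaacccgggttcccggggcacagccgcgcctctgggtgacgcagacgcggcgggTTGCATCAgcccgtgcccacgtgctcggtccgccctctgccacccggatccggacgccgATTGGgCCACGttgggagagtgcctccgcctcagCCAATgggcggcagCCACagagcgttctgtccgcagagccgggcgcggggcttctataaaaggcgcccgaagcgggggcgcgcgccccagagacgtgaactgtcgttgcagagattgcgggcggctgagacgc
HSPA5: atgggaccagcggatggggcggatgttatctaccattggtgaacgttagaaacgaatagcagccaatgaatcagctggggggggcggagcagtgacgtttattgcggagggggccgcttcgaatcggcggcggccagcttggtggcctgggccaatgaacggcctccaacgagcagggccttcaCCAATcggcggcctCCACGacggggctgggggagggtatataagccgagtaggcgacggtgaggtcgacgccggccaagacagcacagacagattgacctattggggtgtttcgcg
XBP1: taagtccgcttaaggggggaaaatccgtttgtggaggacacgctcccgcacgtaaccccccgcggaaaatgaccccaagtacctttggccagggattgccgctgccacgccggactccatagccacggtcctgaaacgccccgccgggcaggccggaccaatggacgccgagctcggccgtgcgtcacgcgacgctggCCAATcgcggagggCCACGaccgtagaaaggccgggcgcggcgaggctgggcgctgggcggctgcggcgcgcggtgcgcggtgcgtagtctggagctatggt
CRELD2: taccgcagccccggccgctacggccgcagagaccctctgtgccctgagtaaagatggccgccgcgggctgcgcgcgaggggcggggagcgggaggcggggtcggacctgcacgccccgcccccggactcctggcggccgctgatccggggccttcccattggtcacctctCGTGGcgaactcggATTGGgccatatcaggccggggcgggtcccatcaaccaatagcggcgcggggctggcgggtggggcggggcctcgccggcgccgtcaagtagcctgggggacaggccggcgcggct

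Both strands of 35116 windows were searched, and all 10 members had a window. ERSE, spelled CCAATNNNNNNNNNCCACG, was found in 0.0769% of all windows and in those of HSPA5, HSP90B1, XBP1 and CRELD2. It began 66 bases before the start site in HSPA5, 52 bases before it in XBP1 and, on the opposite strand, 80 bases before it in CRELD2. HSP90B1 held 2 such matches. Without its last base (0.316% of windows; every ERSE match is also one of these), the element was also found in HERPUD1, 83 bases before the start site. ERSE-II, spelled ATTGGNCCACG, was found in 0.0541% of windows and in those of HERPUD1, 117 bases before the start site, and SDF2L1. HERPUD1 was also the member with the ATF4-C/EBP composite letters TTGCATCA (0.866% of windows), 176 bases before the start site. No member window held the core UPRE letters TGACGTGG (0.729% of windows) or the heat shock element GAANNTTCNNGAA (0.49%). These are matches of letters and not measured binding sites.

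**Figure D2:**
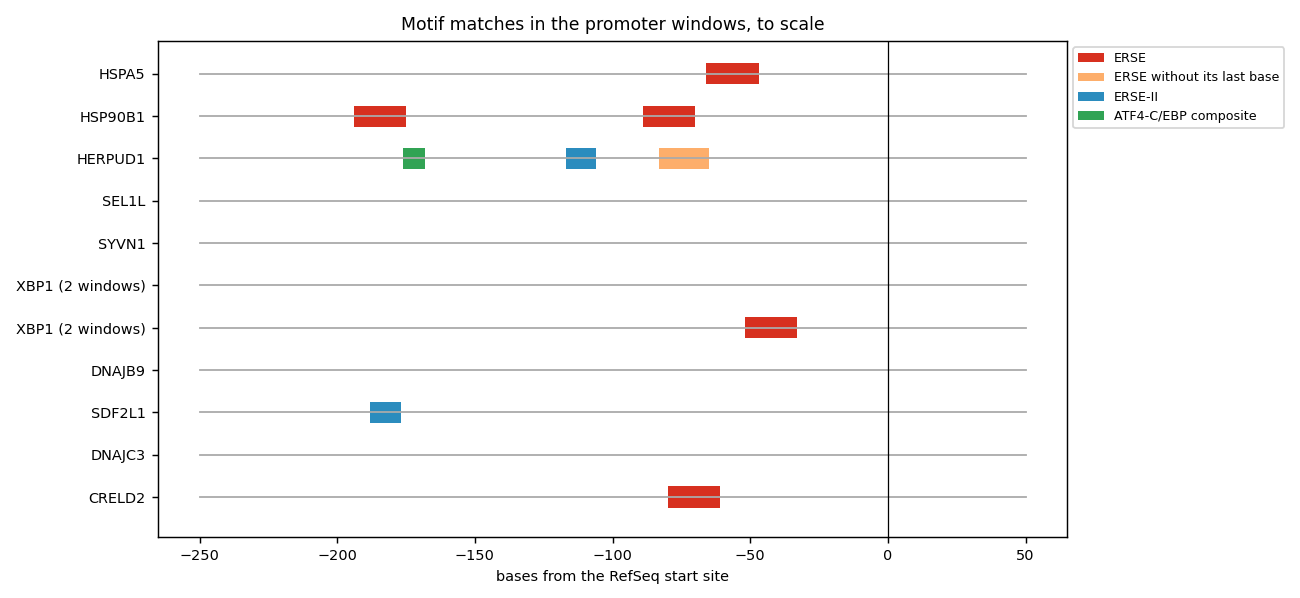
Map, to scale, of the letter matches in the 11 RefSeq promoter windows of the 10 members. The horizontal axis is the distance in bases from the start site, and boxes are matches on either strand. HERPUD1 is the member with 3 kinds of match, at 176, 117 and 83 bases before the start site, and SEL1L, SYVN1, DNAJB9 and DNAJC3 have none.

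MG132-treated cells were compared with G2 cells to see which of the 10 genes moved under proteasome inhibition. HERPUD1, HSPA5 and XBP1 were higher in MG132-treated cells, with folds of 3.97, 1.71 and 2.16. The other 7 members did not pass the test, and DNAJB9, HSP90B1, DNAJC3 and SEL1L varied widely between the 4 MG132 libraries. Thus 3 of 10 members were called higher, against 1.01% of all genes tested. HERPUD1 was the 1 member called under mitochondrial mRNA scaling, with only the groups compared and with the replicate block, and leaving out 1 library gave 1 to 4 members. HERPUD1, HSPA5 and XBP1 also had libraries that did not overlap between the groups, against 2.07% of all genes. Calls needed an adjusted p under 0.05 in edgeR's quasi-likelihood test, Benjamini-Hochberg adjusted over all genes, and every adjusted p below comes from that test unless another tool is named. In bulk samples, fewer cells of a type and less RNA per cell cannot be told apart.

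Among the chaperones, HSPA5 (ENSG00000044574.8; hg38 chromosome 9, 125234853 to 125241330) encodes BiP, the Hsp70 of the ER lumen, which also holds the stress sensors inactive. Its level was 798, 692, 685 and 532 CPM in MG132 replicates 1 to 4, against 472, 403, 348 and 357 CPM in G2 replicates 1 to 4. The lowest MG132 library lay above the highest G2 library. HSPA5 was 1.71-fold higher (log2 fold change 0.78, SE 0.177, adjusted p = 0.0222), and without the 4 GC-skewed libraries the log2 fold change was 0.89 (adjusted p = 0.0285). The call was lost when 1 library was left out in 5 cases: MG132 replicate 1 (0.69, adjusted p = 0.0908), MG132 replicate 3 (0.77, adjusted p = 0.0714), G2 replicate 2 (0.79, adjusted p = 0.0706), G2 replicate 3 (0.72, adjusted p = 0.076) or G2 replicate 4 (0.73, adjusted p = 0.0832). It was also lost under mitochondrial mRNA scaling (0.49, adjusted p = 0.519) and with only the groups compared (0.83, adjusted p = 0.253). The sign held in all of them.

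HSP90B1 (ENSG00000166598.15; chromosome 12, 103930107 to 103953645) encodes GRP94, the HSP90 of the ER. It was at 894, 1484, 1032 and 165 CPM in the MG132 libraries and at 522, 268, 775 and 743 CPM in the G2 libraries. MG132 replicates 1 to 3 lay above every G2 library and MG132 replicate 4 below them all, so the groups overlapped. The log2 fold change of 0.63 (SE 0.474, 95% interval -0.36 to 1.62) did not pass (adjusted p = 0.735), and neither did that of 0.47 without the 4 GC-skewed libraries (adjusted p = 0.455).

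DNAJB9, DNAJC3, SDF2L1 and CRELD2 did not pass either. DNAJB9 (ENSG00000128590.5; chromosome 7, 108569568 to 108574850) encodes ERdj4, a J-domain partner of BiP. Its level was 27.0, 40.2, 34.9 and 6.69 CPM in the MG132 libraries, against 20.9, 7.54, 13.2 and 11.1 CPM in the G2 libraries. As with HSP90B1, 3 MG132 libraries lay above all G2 libraries and MG132 replicate 4 below them all. The log2 fold change was 1.05 (SE 0.41, 95% interval 0.19 to 1.90, adjusted p = 0.262). It was 1.37 and called without MG132 replicate 4 (adjusted p = 0.0207), and 1.01 and not called without all 4 GC-skewed libraries (adjusted p = 0.0548). DNAJC3 (ENSG00000102580.15; chromosome 13, 95677139 to 95794989), a J-domain cochaperone also known as an inhibitor of PERK, was at 109.4, 109.3, 109.5 and 11.7 CPM in the MG132 libraries and at 50.5, 31.6, 79.7 and 74.5 CPM in the G2 libraries. Here too MG132 replicate 4 stood apart, and the log2 fold change of 0.53 (95% interval -0.52 to 1.57) did not pass (adjusted p = 0.837), nor did that of 0.65 without the 4 libraries (adjusted p = 0.199).

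SDF2L1 (ENSG00000128228.5; chromosome 22, 21642261 to 21644298), a partner of ER J-domain proteins, and CRELD2 (ENSG00000184164.14; chromosome 22, 49918167 to 49927540), an ER protein with EGF-like repeats, have GC-rich transcripts (65.5% and 54.5%). SDF2L1 ranged from 23.5 to 42.9 CPM in MG132-treated cells and from 22.6 to 37.3 CPM in G2 cells. CRELD2 ranged from 24.8 to 38.8 CPM in MG132-treated cells and from 27.0 to 45.3 CPM in G2 cells. Both overlapped throughout. Their log2 fold changes were 0.05 (adjusted p = 0.981; 95% interval -0.49 to 0.59), with a sign that turned under total library size (-0.04) and mitochondrial mRNA scaling (-0.18), and -0.22 (adjusted p = 0.841; 95% interval -0.66 to 0.22). Without the 4 libraries they were -0.01 (adjusted p = 0.99) and -0.24 (adjusted p = 0.734). CRELD2 is the member with an ERSE match shown above and a log2 fold change below 0.

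Among the ERAD genes, HERPUD1 (ENSG00000051108.15; chromosome 16, 56932048 to 56944863) encodes Herp, a short-lived ER membrane protein with a ubiquitin-like domain that takes part in the HRD1 ligase complex. Its level was 171, 193, 163 and 204 CPM in MG132 replicates 1 to 4, against 62.7, 47.7, 39.6 and 34.1 CPM in G2 replicates 1 to 4. Every MG132 library was above every G2 library by a wide margin. HERPUD1 was 3.97-fold higher (log2 fold change 1.99, SE 0.25, adjusted p = 8.69e-05) and stayed called in each of the 12 alternative fits and the 20 fits that left out 1 library. Without the 4 GC-skewed libraries the log2 fold change was 1.85 (adjusted p = 0.00529).

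The other 2 ERAD members, which encode the core of the HRD1 complex, did not pass. SEL1L (ENSG00000071537.14; chromosome 14, 81471549 to 81533861), the adaptor that receives substrates, was at 87.2, 87.9, 74.2 and 9.93 CPM in the MG132 libraries and at 39.6, 14.6, 70.9 and 68.0 CPM in the G2 libraries. Again 3 MG132 libraries were above all G2 libraries and MG132 replicate 4 was below them. The log2 fold change was 0.43 (95% interval -0.67 to 1.52, adjusted p = 0.891), and 0.41 without the 4 libraries (adjusted p = 0.571). SYVN1 (ENSG00000162298.18; chromosome 11, 65121780 to 65134533), the ubiquitin ligase HRD1 itself, was at 69.4, 72.9, 71.0 and 91.8 CPM in the MG132 libraries and at 119, 89.0, 55.4 and 65.7 CPM in the G2 libraries. The groups overlapped, and the log2 fold change was -0.11 (adjusted p = 0.954; 95% interval -0.68 to 0.46), turning to 0.12 without G2 replicate 1 and standing at -0.22 without the 4 libraries (adjusted p = 0.845). SYVN1 shares 398 exon bases with FAU, a ribosomal protein fusion gene on the same strand, and 356 with MRPL49 on the other strand. The counting rule is not given, so SYVN1 counts are uncertain to that extent.

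XBP1 (ENSG00000100219.16; chromosome 22, 28794555 to 28800597), the transcription factor of the IRE1 branch, was at 99.8, 207, 132 and 188 CPM in the MG132 libraries and at 89.3, 85.4, 56.4 and 58.8 CPM in the G2 libraries. The groups did not overlap, but MG132 replicate 1 was close to the 2 highest G2 libraries. XBP1 was 2.16-fold higher (log2 fold change 1.11, SE 0.267, adjusted p = 0.0324). This call was lost without MG132 replicate 2 (0.95, adjusted p = 0.1), MG132 replicate 3 (1.19, adjusted p = 0.0621), G2 replicate 2 (1.20, adjusted p = 0.0589), G2 replicate 3 (1.01, adjusted p = 0.104) or G2 replicate 4 (1.02, adjusted p = 0.115). Without the 4 GC-skewed libraries, which include the 2 highest MG132 libraries, the log2 fold change was 0.74 (adjusted p = 0.264). The call was also lost under mitochondrial mRNA scaling (0.86, adjusted p = 0.296) and with only the groups compared (1.182, adjusted p = 0.199).

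**Figure D3:**
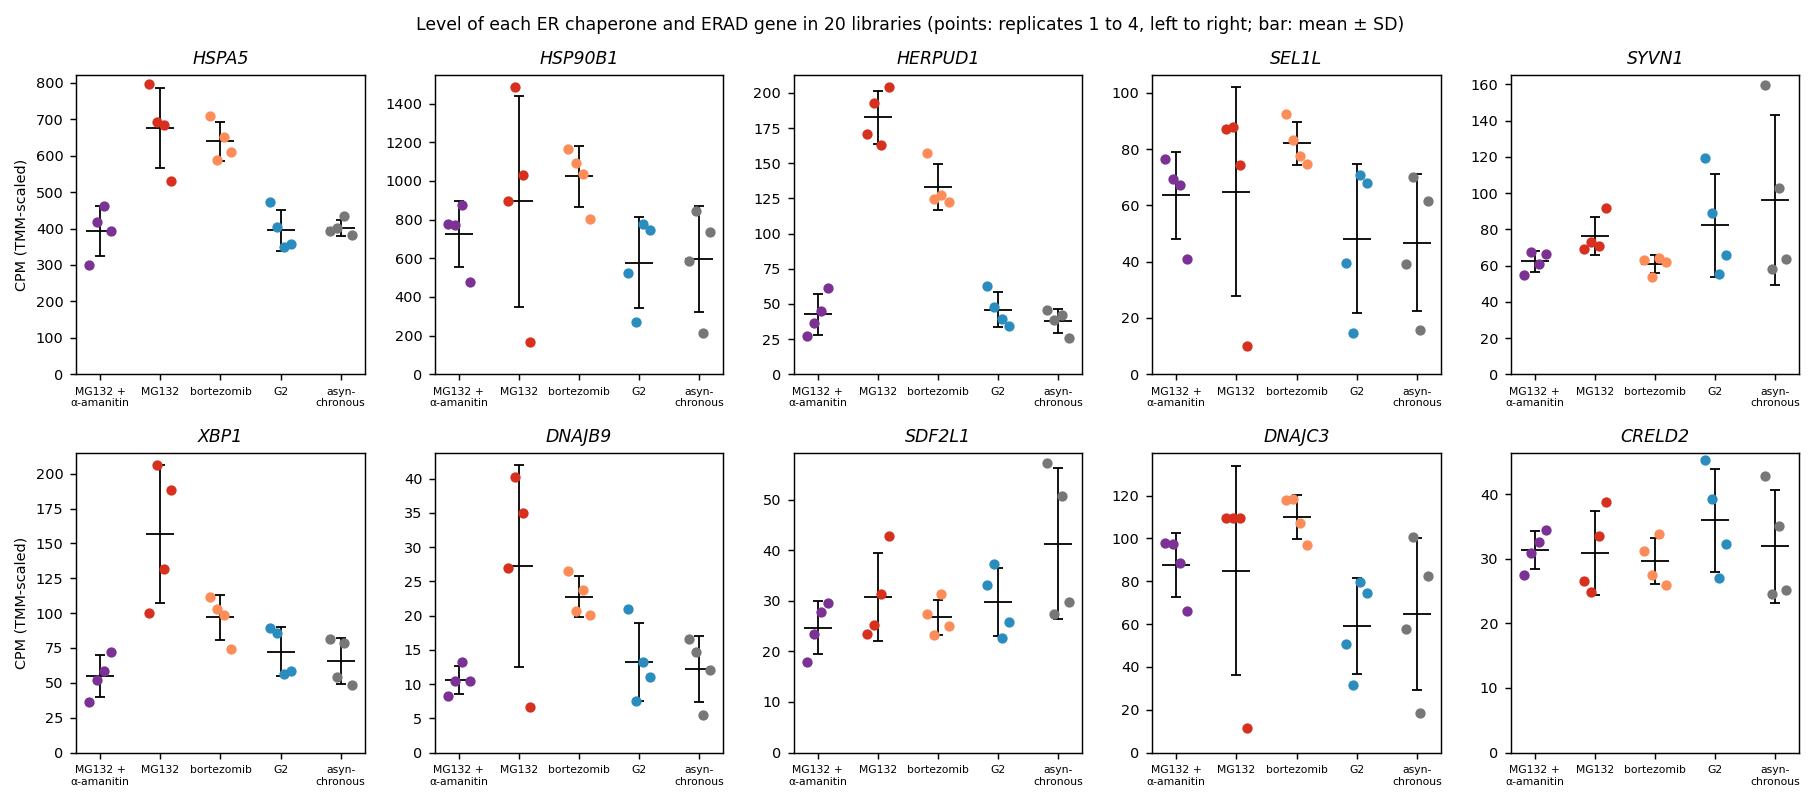
Level of each of the 10 genes in CPM (vertical axis, TMM-scaled) in the 5 groups (horizontal axis). Points are replicates 1 to 4 from left to right, and bars are means ± SD. HERPUD1 lies between 163 and 204 CPM with MG132, against 34.1 to 62.7 CPM in G2 cells, and MG132 replicate 4 is the lowest MG132 library for HSP90B1, SEL1L, DNAJB9 and DNAJC3.

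The wider ER machinery was read from lists of other genes, of which 0 of 6 sensors and their proteases, 0 of 22 ER folding genes, 0 of 23 tested ERAD genes of 24 listed and 0 of 12 translocation genes were called in MG132-treated against G2 cells. Over all genes 2.08% were called in either direction, so 0 calls in lists of this size lie near that share. At an unadjusted p under 0.05 the counts were 1, 1, 2 and 0, against 11.8% of all genes. DESeq2 called 1 gene over these 4 lists, ERN1, and limma-voom 0, and the 12 alternatives gave 0 to 2 calls. ERN1, which encodes IRE1, was at 26.4 CPM in MG132-treated and 15.4 CPM in G2 cells without overlap and just missed (log2 fold change 0.78, adjusted p = 0.0568). It was at a similar level with MG132 plus α-amanitin, at 25.8 CPM (0.75 against G2 cells, adjusted p = 0.0538). With bortezomib it was at 24.9 CPM (0.70 against G2 cells, adjusted p = 0.106). In MG132 against G2 cells the median log2 fold changes of the 4 lists were 0.08, 0.15, 0.06 and -0.07, against 0.58 for the 10 members and -0.03 for all genes. HYOU1, a nucleotide exchange factor of BiP, differed by 0.37 on the log2 scale (adjusted p = 0.739), the ERAD lectin gene OS9 by 0.30 (adjusted p = 0.623) and the ERAD mannosidase-like gene EDEM1 by -0.13 (adjusted p = 0.952). DERL3 was under the filter.

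The genes of the PERK-ATF4 list and cytosolic chaperones rose in the same libraries. All 8 genes of the PERK-ATF4 list were called higher (median log2 fold change 2.86). ATF4 was at 439 CPM in MG132-treated and 238 CPM in G2 cells (log2 fold change 0.89, adjusted p = 0.036), and its target DDIT3, which encodes CHOP, was at 58.6 CPM in MG132-treated and 6.57 CPM in G2 cells (3.16, adjusted p = 4.77e-05). CHAC1, a glutathione-degrading enzyme gene, rose by 5.42 (adjusted p = 1.75e-08), SESN2 by 3.52 (adjusted p = 6.12e-08), ATF3 by 4.25 (adjusted p = 5.79e-07) and PPP1R15A, the phosphatase subunit acting on eIF2α, by 2.56 (adjusted p = 1.4e-06). Of 9 cytosolic heat shock genes, 8 were called higher (median 2.61), among them BAG3 (2.61, adjusted p = 6.12e-08). These lists were chosen with earlier results of these data known.

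**Figure D4:**
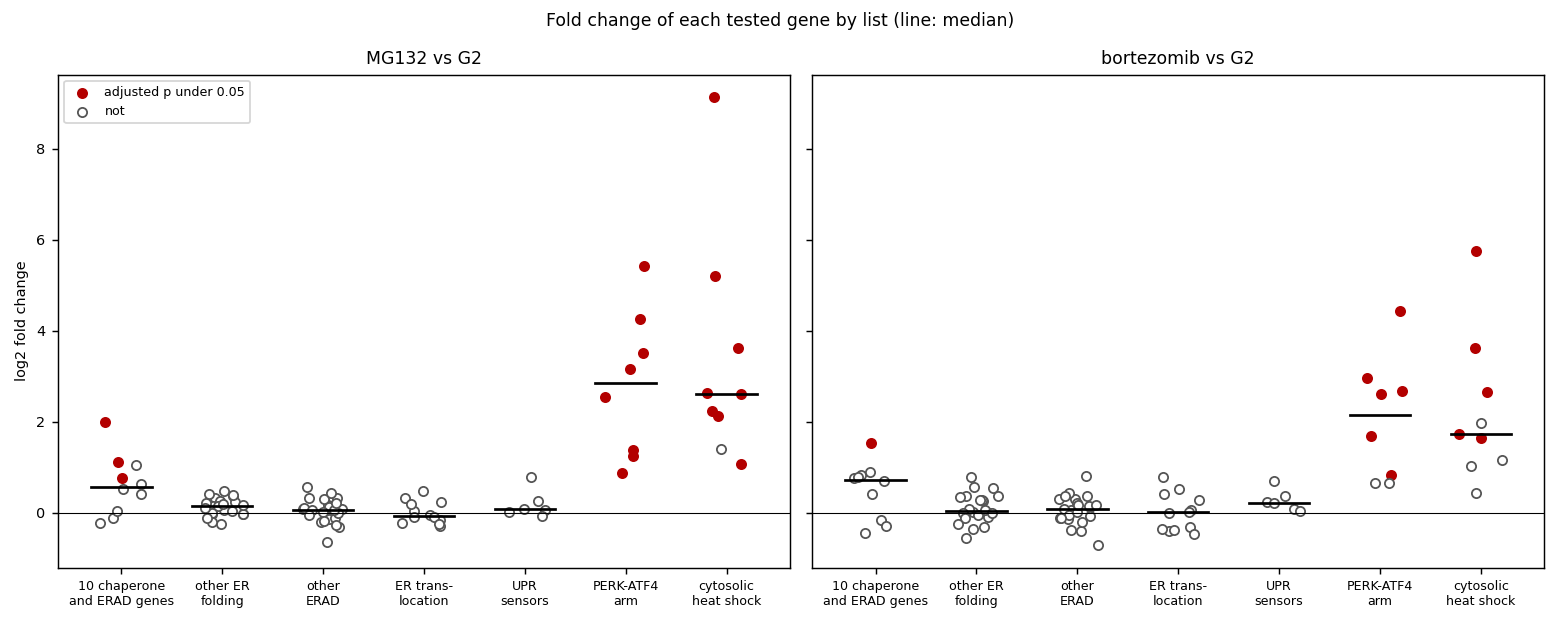
Log2 fold change (vertical axis) of each tested gene by list (horizontal axis), in MG132 against G2 cells (left) and bortezomib against G2 cells (right). Filled points have an adjusted p under 0.05, and lines are medians. The PERK-ATF4 and cytosolic heat shock lists lie highest, with medians of 2.86 and 2.61 for MG132. In the 4 other ER lists 0 genes are filled, against 2.08% of all genes called for MG132 and 1.15% for bortezomib.

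Bortezomib-treated cells were compared with the same G2 libraries. HERPUD1 was the 1 member called higher of 10, against 0.491% of all genes. It was at 157, 124, 128 and 123 CPM in bortezomib replicates 1 to 4, all above the highest G2 library at 62.7 CPM. The fold was 2.89 (log2 fold change 1.53, SE 0.247, adjusted p = 0.0029). Without the 4 GC-skewed libraries the log2 fold change was 1.52 (adjusted p = 0.00944). It kept its sign in all alternatives and lost its call under mitochondrial mRNA scaling (1.31, adjusted p = 0.0792).

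HSPA5 was at 709.7, 587, 651 and 609 CPM in the bortezomib libraries, again above every G2 library, whose highest was 472 CPM. Its log2 fold change of 0.69 (SE 0.176) narrowly missed the threshold (adjusted p = 0.058). It passed with DESeq2 (0.70, adjusted p = 0.00185), with limma-voom (0.70, adjusted p = 0.0499) and without the 4 GC-skewed libraries (0.67, adjusted p = 0.0471). It also passed when MG132 replicate 2 (0.70, adjusted p = 0.0497) or MG132 replicate 4 (0.69, adjusted p = 0.0288) was left out of the shared estimate of the spread. In 8 of the 12 alternative fits HSPA5 stayed uncalled. Over the 12 its log2 fold change was 0.48 to 0.85, and its adjusted p reached 0.491. With 1 library left out the adjusted p reached 0.223.

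The libraries of 5 members, HSPA5, HSP90B1, HERPUD1, SEL1L and DNAJC3, lay above all G2 libraries, against 7.66% of all genes. HSP90B1 ranged from 802 to 1163 CPM in bortezomib-treated and from 268 to 775 CPM in G2 cells (log2 fold change 0.83, adjusted p = 0.438). DNAJC3 was at 96.7 to 119 CPM in bortezomib-treated and at 31.6 to 79.7 CPM in G2 cells (0.90, adjusted p = 0.424), and SEL1L at 74.8 to 92.4 CPM in bortezomib-treated and at 14.6 to 70.9 CPM in G2 cells (0.77, adjusted p = 0.508). None of these 3 passed, and G2 replicate 2, 1 of the GC-skewed libraries, was their lowest G2 library. Without the 4 libraries their log2 fold changes were 0.56, 0.66 and 0.43 (adjusted p = 0.203, 0.0961 and 0.357).

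The remaining members overlapped between bortezomib-treated and G2 cells. DNAJB9 was at 20.1 to 26.5 CPM in bortezomib-treated cells, against 7.54 to 20.9 CPM in G2 cells (log2 fold change 0.79, adjusted p = 0.39; 0.56 without the 4 libraries, adjusted p = 0.194). XBP1 was at 74.3 to 112 CPM in bortezomib-treated cells, against 56.4 to 89.3 CPM in G2 cells (0.42, SE 0.265, adjusted p = 0.476; 0.48 without the 4, adjusted p = 0.339). SYVN1 was at 53.7 to 64.2 CPM in bortezomib-treated cells, against 55.4 to 119 CPM in G2 cells (-0.44, adjusted p = 0.472; -0.43 without the 4, adjusted p = 0.475). SDF2L1 and CRELD2 were at 23.3 to 31.3 and 25.98 to 33.9 CPM in bortezomib-treated cells and did not pass either. The median over the 10 members was 0.73, against -0.01 over all genes. Of the other ER lists, 0 sensors, 0 folding, 0 ERAD and 0 translocation genes were called, against 1.15% of all genes in either direction. At an unadjusted p under 0.05 the counts were 1, 2, 2 and 0, against 14.5% of all genes. DESeq2 called ERN1 and limma-voom 0 genes, and the 12 alternatives gave 0 to 2 calls. Of the PERK-ATF4 list 6 of 8 were called higher, including DDIT3 (2.62, adjusted p = 0.000793), and of the cytosolic heat shock genes 5 of 9. Over all genes 0.491% were called higher. The log2 fold change was above 0 in all 8 and all 9 genes of these lists.

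**Figure D5:**
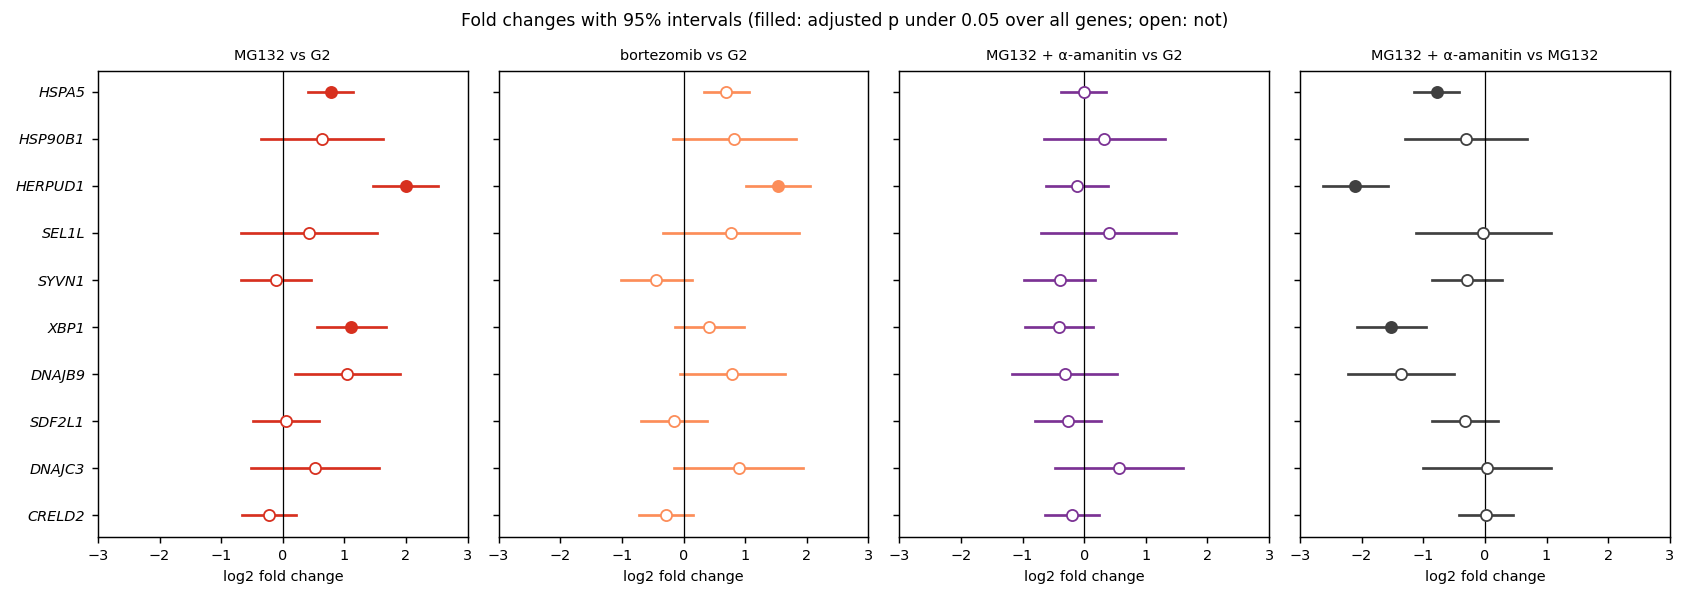
Log2 fold change (horizontal axis) of each of the 10 genes (rows) with its 95% interval in 4 comparisons. Filled points have an adjusted p under 0.05 over all genes. HERPUD1 is filled at 1.99 for MG132 against G2, at 1.53 for bortezomib against G2 and at -2.10 for MG132 plus α-amanitin against MG132, and its interval spans 0 for MG132 plus α-amanitin against G2.

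MG132 with α-amanitin was compared with MG132 alone, at the same time, to see which changes were present with RNA polymerase II inhibited. No group received α-amanitin alone. An effect of α-amanitin by itself on these mRNAs and an effect on the response to MG132 therefore cannot be told apart. HERPUD1, XBP1 and HSPA5, the 3 members higher with MG132, were lower when α-amanitin was present. They were 3 of 10 members, against 1.51% of all genes called lower. Since the MG132 libraries enter both comparisons, a chance deviation of these libraries moves both, and the second is not an independent repeat of the first.

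HERPUD1 was at 26.9, 36.7, 45.0 and 61.7 CPM in MG132 plus α-amanitin replicates 1 to 4, against 163 to 204 CPM with MG132 alone. The groups were far apart (log2 fold change -2.10, SE 0.251, adjusted p = 3.84e-05; -1.97 without the 4 GC-skewed libraries, adjusted p = 0.00114). XBP1 was at 36.2, 51.9, 58.7 and 72.4 CPM with both agents, against 99.8 to 207 CPM with MG132 alone. It fell by 1.52 on the log2 scale (SE 0.27, adjusted p = 0.00277), and the value without the 4 libraries was -1.08 (adjusted p = 0.0529). HSPA5 was at 301, 418, 463 and 393 CPM with both agents, against 532 to 798 CPM with MG132 alone. Its log2 fold change was -0.78 (SE 0.177, adjusted p = 0.0198), and -0.91 without the 4 libraries (adjusted p = 0.0133). The HSPA5 call was lost without MG132 plus α-amanitin replicate 1 (-0.67, adjusted p = 0.111), replicate 2 (-0.81, adjusted p = 0.0569) or replicate 4 (-0.78, adjusted p = 0.0531), or without MG132 replicate 1 (-0.70, adjusted p = 0.0587).

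The libraries of 4 members lay below all MG132 libraries, against 4.01% of all genes. Beside the 3 called genes this was SYVN1, at 54.9 to 67.6 CPM with both agents and 69.4 to 91.8 CPM with MG132 alone, which differed by -0.29 on the log2 scale without passing (adjusted p = 0.748; -0.17 without the 4 libraries, adjusted p = 0.895). DNAJB9 was at 8.21, 10.5, 13.2 and 10.5 CPM with both agents, below MG132 replicates 1 to 3 and above MG132 replicate 4 at 6.69 CPM. Its log2 fold change of -1.36 (SE 0.413) did not pass (adjusted p = 0.107). It passed with DESeq2 (-1.39, adjusted p = 0.0237), without MG132 replicate 4 (-1.69, adjusted p = 0.00517) and without all 4 GC-skewed libraries (-1.54, adjusted p = 0.00171). The other 5 members had log2 fold changes from -0.32 (SDF2L1) to 0.04 (DNAJC3). All 8 genes of the PERK-ATF4 list (median -2.21) and 7 of 9 cytosolic heat shock genes (median -2.03) were called lower. Of the sensors, folding, ERAD and translocation genes 0 were called by edgeR, DESeq2 or limma-voom. With edgeR 2.19% of all genes were called in either direction. At an unadjusted p under 0.05 the counts were 0, 0, 1 and 0, against 12.5% of all genes.

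Against G2 cells, MG132 plus α-amanitin left 0 of 10 members called, where 3.35% of all genes were called in either direction. At an unadjusted p under 0.05 there were also 0 members, against 14.4% of all genes, and DESeq2 and limma-voom called 0. Among 10 genes, counts of 0 lie near these shares and do not set the members apart from other genes. HERPUD1 averaged 42.6 ± 14.7 CPM with both agents and 46.0 ± 12.4 CPM in G2 cells (SD, n = 4 each; log2 fold change -0.11, 95% interval -0.62 to 0.39, adjusted p = 0.904). HSPA5 averaged 394 ± 68.3 CPM with both agents and 395 ± 56.6 CPM in G2 cells (-0.01, 95% interval -0.37 to 0.36, adjusted p = 0.996). XBP1 averaged 54.8 ± 15.1 CPM with both agents and 72.5 ± 17.3 CPM in G2 cells (-0.40, adjusted p = 0.552). Without the 4 GC-skewed libraries HERPUD1 stood at -0.12 (adjusted p = 0.834), HSPA5 at -0.02 (adjusted p = 0.957) and XBP1 at -0.34 (adjusted p = 0.487). Levels are relative to the other RNA of each library. Scaled to mitochondrial mRNAs instead, the median of all genes shifted by -0.41 in this comparison, and again 0 members were called. Over the 12 alternative fits HERPUD1 ranged from -0.49 to -0.02, HSPA5 from -0.42 to 0.06 and XBP1 from -0.79 to -0.17. The 10 log2 fold changes ranged from -0.40 (XBP1) to 0.57 (DNAJC3). In the wider lists 1 ERAD gene, the ligase gene RNF139, was lower with both agents (21.1 CPM, against 44.4 CPM in G2 cells; -1.07, adjusted p = 0.0113), a call absent without MG132 plus α-amanitin replicate 1 or 2. RNF139 also lay below G2 cells with MG132 alone, at 28.7 CPM (-0.63, adjusted p = 0.212). With bortezomib it was at 27.1 CPM (-0.71 against G2 cells, adjusted p = 0.14). Neither of these differences passed, and the cause of the lower level was not tested. Of the PERK-ATF4 list, CHAC1 (1.78, adjusted p = 0.00251) and ATF3 (1.63, adjusted p = 0.00785) were higher with both agents than in G2 cells. Of the 9 cytosolic heat shock genes 1 was, HSPA6, a stress-inducible Hsp70 gene, at 1.64 CPM with both agents and 0.125 CPM in G2 cells (adjusted p = 8.72e-05).

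The 2 proteasome inhibitors were compared at the same time and at 1 dose each, so no matched dose exists. Between MG132 and bortezomib, 0 of 10 members were called, against 0.0369% of all genes, and DESeq2 and limma-voom called 0. At an unadjusted p under 0.05 there was 1 member, against 4.05% of all genes. That member was XBP1, at 157 ± 49.4 CPM with MG132 and 97.0 ± 16.1 CPM with bortezomib (SD, n = 4 each). Its log2 fold change was 0.69 (95% interval 0.14 to 1.25, adjusted p = 0.983), and 0.26 without the 4 GC-skewed libraries (adjusted p = 1.0). HERPUD1 was at 163 to 204 CPM with MG132 and 123 to 157 CPM with bortezomib. Its log2 fold change of 0.46 (95% interval -0.05 to 0.96) did not pass (adjusted p = 0.983), nor did that of 0.33 without the 4 libraries (adjusted p = 1.0). SYVN1 was at 69.4 to 91.8 CPM with MG132 and 53.7 to 64.2 CPM with bortezomib and did not pass either (adjusted p = 0.983). These 2 of 10 members had MG132 libraries that all lay above the bortezomib libraries, against 1.74% of all genes. The 10 log2 fold changes ranged from -0.37 (DNAJC3) to 0.69, and the intervals do not show that the drugs act alike. Of the wider lists, HSPA6 was the 1 gene called, at 75.6 CPM with MG132 and 7.20 CPM with bortezomib (3.39, adjusted p = 9.66e-05).

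The comparison of G2 with asynchronous cells shows what synchronisation changed before any drug. Of the 10 members 0 were called, against 2.09% of all genes, and DESeq2 and limma-voom called 0. At an unadjusted p under 0.05 there were 0 members, against 13.1% of all genes. Among 10 genes, counts of 0 lie near these shares. HERPUD1 was at 34.1 to 62.7 CPM in G2 cells and 26.1 to 45.7 CPM in asynchronous cells (log2 fold change 0.27, adjusted p = 0.755; 0.30 without the 4 libraries, adjusted p = 0.622). SDF2L1 was at 22.6 to 37.3 CPM in G2 cells and 27.4 to 57.3 CPM in asynchronous cells (-0.47, adjusted p = 0.473; -0.50 without the 4, adjusted p = 0.331). These were the highest and the lowest of the 10. HSPA5 averaged 395 ± 56.6 CPM in G2 and 402 ± 22.7 CPM in asynchronous cells (SD, n = 4 each). In asynchronous cells SEL1L ranged from 15.8 to 70.0 CPM, DNAJC3 from 18.6 to 100.7 CPM and HSP90B1 from 215 to 845 CPM, each lowest in GC-skewed replicate 3.

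Per kilobase of exon (RPKM, computed here from CPM and GENCODE exon lengths), the 2 main chaperones stood first in G2 cells, at 123 for HSP90B1 and 101 for HSPA5. SDF2L1 followed at 27.0, XBP1 at 23.9, SYVN1 at 14.99, DNAJC3 at 10.6, HERPUD1 at 8.92, CRELD2 at 6.96, SEL1L at 5.05 and DNAJB9 at 4.65 RPKM. Of neighbours in this order, only HSPA5 and SDF2L1 had libraries that did not overlap. In MG132-treated cells HERPUD1 ranked 4 of 10 at 35.4 RPKM, after XBP1 at 51.7 RPKM, and in G2 cells it ranked 7. Its MG132 libraries overlapped those of XBP1 and those of SDF2L1, the next in order.

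The tested genes with the most similar course over the 5 group means were ranked by the root mean square difference of centred log2 CPM, among the 10082 genes whose log2 CPM averaged 3 or more. Nearest to HERPUD1 were DNAJB4 (0.15), GADD45B (0.19), DNAJB1 (0.20), a gene without a symbol, ENSG00000285565 (0.24), and PPP1R15A (0.25). HERPUD1 itself stood at 1.38 with MG132, 0.92 with bortezomib, -0.77 with MG132 plus α-amanitin, -0.64 in G2 and -0.90 in asynchronous cells relative to its own mean. Nearest to HSPA5 were PHLDA3 (0.03), CCDC174 (0.04), RBM39 (0.06), SQSTM1 (0.06) and VEGFA (0.07). HSPA5 moved between -0.31 and 0.47 on that scale, so many genes of small change lie close to it. The likeness rests on 5 group means.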

How the data were processed

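Total RNA, depleted of ribosomal RNA, was measured in 20 libraries made with a stranded kit, per the labels' protocols. Their deposited table holds unnormalised counts for 39918 genes and 1174 repeat subfamilies, with 20 columns that matched the samples by name and 0 columns not used. Total counts per library were 26797395 to 39710457, as the deposited counts sum. Per the submitters' processing notes, the build was hg38 and the tools included STAR, cutadapt 1.18 and FastQC, with no role stated. How reads were assigned to genes (tool, annotation, strand, reads with several alignments) is not given in the sources used here. Reads of genes with overlapping exons (SYVN1 with FAU and MRPL49, DNAJB9 with THAP5 and PNPLA8, CRELD2 with ALG12, HSP90B1 with C12orf73 and TTC41P) and of near-identical copies (HSPA1A and HSPA1B) can therefore be split in unknown ways. Pseudogene rows held few counts, such as 331 for HSP90B2P against 464370 for HSP90B1.

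Genes and repeats entered 1 fit with edgeR 4.0.16 under R 4.3.3 (filterByExpr, TMM scaling, robust glmQLFit and glmQLFTest). All 20 libraries entered with 1 mean per group and 15 residual degrees of freedom, and the biological coefficient of variation was 33.3%. Adjusted p-values are Benjamini-Hochberg over the 18959 genes tested, two-sided, called under 0.05. CPM and RPKM were computed here from the counts, with positions, exon lengths and transcript GC content from GENCODE release 29. Promoter letters come from RefSeq windows. The fit was tested on simulated data, where most 2-fold changes were missed.

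The 10 members were named whatever their values. From each other list the text could name up to 4 called genes of smallest p, with HYOU1, DERL3, OS9, EDEM1, ATF4 and DDIT3 in any case, and the 5 genes nearest in course to HERPUD1 and to HSPA5. ERN1 was named after its values were seen. The members, lists and tests were chosen with earlier results of these data known. Alternatives were scaling by RLE, by total library size and by 13 mitochondrial mRNAs, testing without a filter or with a stricter one (4 samples at a CPM of 1 or more), limma-voom (limma 3.58.1), DESeq2 1.42.0, a fit of only the groups compared, and blocks for the replicate number or a code letter. Others left out each library in turn or the 4 GC-skewed libraries together. A correction by GC content and exon length (loess span 0.5, prior count 2) was chosen after seeing the data.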

Additional observations from a re-analysis of the deposited data

Results flagged for a closer look

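Each of the 10 genes was screened in each of the 5 groups for a library far from the other 3, which made 50 sets of 4 values. Chance alone flags about 1 in 20 such sets, and 3 were found. DNAJC3 stood at 11.7 CPM in MG132 replicate 4, against 109.3 to 109.5 CPM in the other MG132 libraries. SYVN1 stood at 91.8 CPM in MG132 replicate 4, against 69.4 to 72.9 CPM in the others. That library had the steepest GC slope of the 20, at 0.74, and the transcripts hold 39.9% and 56.3% GC. The part of the slope in these values was not tested. HERPUD1 stood at 157 CPM in bortezomib replicate 1, against 123 to 128 CPM in the other bortezomib libraries.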

How the results depend on the processing

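Across 12 alternative fits, 1 member instead of 3 was called in MG132 against G2 cells, HERPUD1, under mitochondrial mRNA scaling, with only the groups compared and with the replicate block. HSPA5 also lost this call with no filter (adjusted p = 0.0596) and the code letter block (adjusted p = 0.0955), and XBP1 with the GC and length offset (1.33, adjusted p = 0.0704), which called DNAJB9 (0.94, adjusted p = 0.021). In bortezomib against G2 cells the count of 1 became 0 under mitochondrial mRNA scaling and 2, with HSPA5, under DESeq2, limma-voom, the GC and length offset and without the 4 GC-skewed libraries. In MG132 plus α-amanitin against MG132, the HSPA5 call was also lost under total library size (-0.61, adjusted p = 0.0837), mitochondrial mRNA scaling (adjusted p = 0.178), only the groups compared (adjusted p = 0.149) and the code letter block (adjusted p = 0.0565), and DNAJB9 was gained with the offset (adjusted p = 0.00366). Leaving out 1 library gave 1 to 4 members called in MG132 against G2, 1 to 2 in bortezomib against G2 and 2 to 4 in MG132 plus α-amanitin against MG132. The other 3 comparisons had 0 members called in all alternatives. The causes were not tested.

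Signs turned only in values that did not pass. SDF2L1 in MG132 against G2 became -0.045 under total library size, -0.182 under mitochondrial mRNA scaling and -0.014 without the 4 GC-skewed libraries, and ranged from -0.154 to 0.179 with 1 library left out. HSPA5 in MG132 plus α-amanitin against G2 became 0.057 under total library size and 0.001 with the replicate block, and ranged from -0.092 to 0.105 with 1 library left out. With 1 library left out, SYVN1 in MG132 against G2 ranged from -0.26 to 0.123 and HERPUD1 in MG132 plus α-amanitin against G2 from -0.346 to 0.071. Over all genes the median shifted by -0.259, -0.21, -0.407 and -0.147 under mitochondrial mRNA scaling in MG132, bortezomib and MG132 plus α-amanitin against G2 and MG132 plus α-amanitin against MG132. It moved by -0.121, 0.171 and 0.161 under total library size in MG132 against G2, MG132 plus α-amanitin against MG132 and G2 against asynchronous cells.

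Over the sensor, folding, ERAD and translocation lists, 0 calls with MG132 became 1 with RLE or DESeq2 (ERN1) and 2 with the GC and length offset (ERN1 and RNF139). The 0 calls with bortezomib became 1 with DESeq2 (ERN1), 1 with only the groups compared or without the 4 GC-skewed libraries (RNF139) and 2 with the offset. In the remaining lists, the 8 PERK-ATF4 calls with MG132 were 5 under mitochondrial mRNA scaling and with only the groups compared, and the 8 lower calls with α-amanitin were 5 without the 4 GC-skewed libraries. The 1 heat shock call between MG132 and bortezomib was 5 with DESeq2, 4 with the offset and 0 with the code letter block.

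Replicate numbers are shared between groups, and the labels do not say that they pair samples. Of 40 same-numbered pairs 12 had a correlation of deviations over 0.1 (range -0.628 to 0.623), and 4 of 20 libraries correlated best with their own number. With the replicate block HSPA5 was at 0.772 (adjusted p = 0.0506) and XBP1 at 1.11 (adjusted p = 0.0753) in MG132 against G2. The code letter is a letter in each sample label whose meaning is undocumented. Of 33 same-letter pairs 16 had a correlation over 0.1 (range -0.55 to 0.826). A spread of 33.3% between libraries limits what small changes can pass. In MG132 against G2 the standard errors of SEL1L, HSP90B1, DNAJC3 and DNAJB9 were 0.41 to 0.527, against 0.177 to 0.273 for the other 6 members.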
